A study of Homo sapiens with 6 samples.

Results

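The genes described here encode the microtubule motors of the cell, the kinesin heavy chains and the subunits of the dyneins, as measured in the poly(A) RNA of HEK293 cells. Members were the genes of the count table whose symbol begins with KIF and a digit, KIFC, DNAH, DYNC, DYNLL, DYNLT or DYNLRB, with pseudogenes and antisense genes left out and at least 10 counts summed over the 6 libraries. The rule gave 71 of 63677 genes, 40 kinesins and 31 dynein genes. Of 104 symbols with these beginnings, 30 were not protein coding and 3 coding genes were under 10 counts.

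HEK293 is a human embryonic kidney cell line. Every culture was transfected with an siRNA by Lipofectamine RNAiMAX and lysed 48 hours later. The siRAB3IP group received an siRNA against circRAB3IP and the siCAMSAP1 group an siRNA against circCAMSAP1, both circular RNAs named after the gene they come from, and the control group the siRNA that the records call NTC. There were 2 libraries per group and no other difference between groups in the labels. Separate cultures are not mentioned for the replicates, so each p rests on a spread between libraries that may be technical. The groups follow the column names of the authors' deposited tables, and the titles of the sample records place 4 of the 6 libraries in another group, while the genotype entries exchange the 2 knockdown names. Grouped by those titles, edgeR's quasi-likelihood test called 0 of the 67 motor genes tested in each of the 3 comparisons, with an unadjusted p under 0.05 for 0 in siRAB3IP against control, 1 in siCAMSAP1 against control and 1 in siRAB3IP against siCAMSAP1, and DESeq2 also called 0 in each. Over all genes edgeR likewise called 0 in each comparison with the titles, and 2671, 237 and 2076 with the table names. DESeq2 called 0, 1 and 0 of all genes with the titles. The absence of calls thus holds for all genes, not for motor genes alone. The labels and tables do not settle which names hold, and every direction below rests on the table names.

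Kinesins and dyneins turn the energy of ATP into steps along microtubules. Most kinesins walk toward the growing plus end, the C-terminal kinesins and the dyneins toward the minus end. In a dividing cell a set of kinesins builds the spindle and the bridge between the daughters, while conventional kinesins and cytoplasmic dynein 1 carry organelles, vesicles and RNA through the cytoplasm. In the primary cilium, kinesin-2 moves intraflagellar transport trains outward and dynein 2 brings them back, and the axonemal dyneins bend motile cilia and sperm flagella. CAMSAP proteins cap microtubule minus ends, and RAB3IP activates RAB8, a GTPase of ciliary membrane traffic.

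Between 37379217 and 39637733 fragments per library were assigned to genes, and the 71 motor genes took 0.436% to 0.484% of them. Levels are in CPM, counts scaled to the library size after TMM scaling, which lay between 97.0% and 104.3% of the assigned fragments. On that scale 3 counts, the least taken as detectable by counting error alone, came to between 0.0726 and 0.08025 CPM. The linear RAB3IP transcript had 68.1 and 66.7 CPM in siRAB3IP, 56.3 and 61.6 CPM in siCAMSAP1 and 57.5 and 62.5 CPM in control, and CAMSAP1 had 156 and 150.0, 139 and 138, and 138 and 136 CPM in the same groups. Poly(A) libraries read linear mRNA, so neither gene checks the knockdown of its circular RNA. Of 5 HEK293 genes found, VIM, KRT8 and KRT18 were above 1 CPM and PAX2 and NEFM below it. Multiciliated cell markers, relevant to the axonemal dyneins, summed over 9 genes to 9.02 and 10.6 CPM in siRAB3IP, 9.51 and 8.56 CPM in siCAMSAP1 and 10.3 and 10.2 CPM in control, with 5 of the 9 under 1 CPM. Of 13 markers of blood, liver, endothelium, muscle and fibroblasts, 9 were under 1 CPM and PECAM1 was at 0 counts in every library. Some markers moved with the knockdown: in siRAB3IP against control LCP1, a leukocyte actin bundler, and HBA2, a globin, rose (log2 fold changes 1.80 ± 0.23 and 1.44 ± 0.43), and COL1A1, a collagen, KRT18 and KRT8 fell (-0.79 ± 0.14, -0.72 ± 0.09 and -0.56 ± 0.10). HBA2 was among the 9 markers under 1 CPM in the mean over libraries, so its rise is one at a low level. LCP1 had 4.15 and 4.5 CPM in siRAB3IP, 2.37 and 2.95 CPM in siCAMSAP1 and 1.07 and 1.40 CPM in control, and rose in siCAMSAP1 as well (1.10 ± 0.23). Their part in the motor gene results was not tested.

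Level per length, in RPKM (here CPM divided by the exon length in kb), differed widely between members. The mean over 6 libraries was above 10 RPKM in 23 members, between 1 and 10 RPKM in 25 and under 1 RPKM in 23, of which 11 were axonemal heavy chains. KIF5B, the ubiquitous conventional kinesin that carries organelles, stood highest, at 92.0 ± 2.52 RPKM in siRAB3IP, 92.3 ± 9.29 in siCAMSAP1 and 93.8 ± 5.69 in control (SD, n = 2 each). The highest of their classes were also DYNC2I2, an intermediate chain of dynein 2, at a mean of 48.2 RPKM, DYNLL1, a light chain shared by many complexes, at 47.2, and KIF20A, a cytokinesis motor, at 38.8. DYNC1H1, the heavy chain of cytoplasmic dynein 1, averaged 30.1 RPKM and KIF2A, a microtubule depolymerase, 16.7. The remaining classes were led by DNAH14, an axonemal heavy chain, at 4.62 RPKM and KIFC3, a minus-end kinesin, at 3.70.

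**Figure D1:**
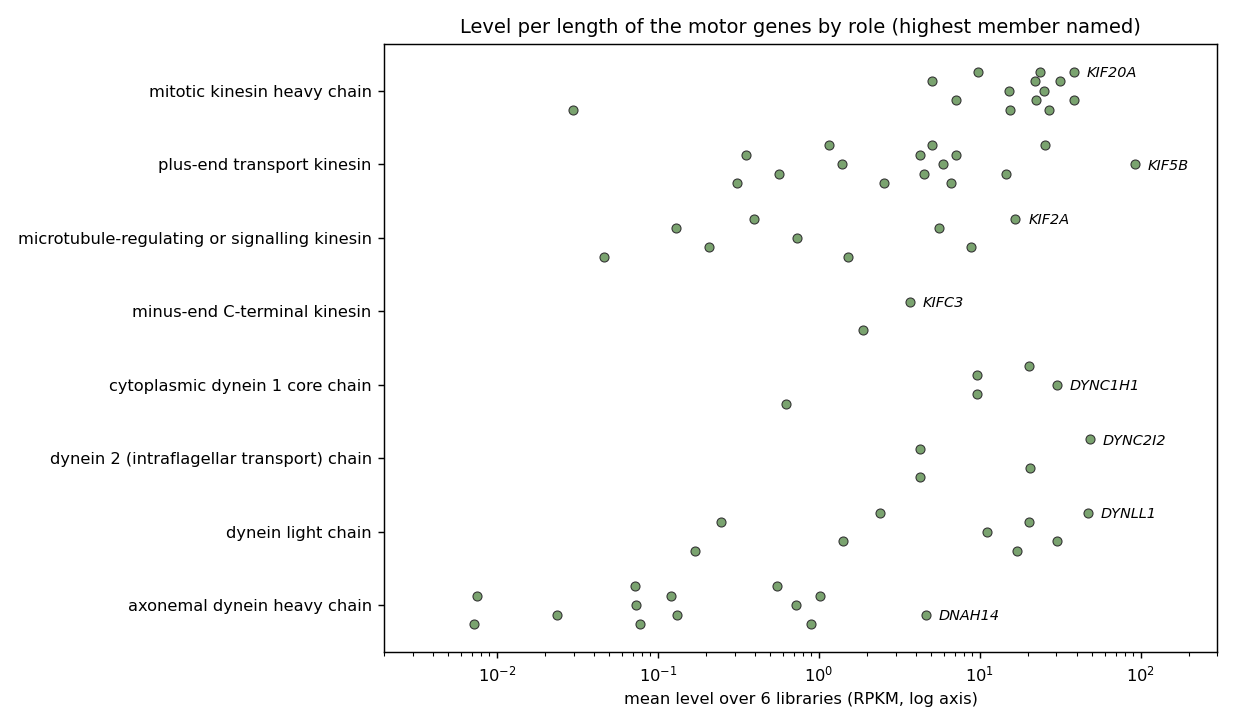
Mean level per length of each of the 71 motor genes over the 6 libraries, in RPKM on a log axis, by role, with 1 point per gene and the highest gene of each role named. KIF5B is the rightmost point at 92.7 RPKM, and all axonemal heavy chains except DNAH14 and DNAH17 lie under 1 RPKM.

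In siRAB3IP against control, 12 of 67 motor genes tested passed the threshold (edgeR's quasi-likelihood test, Benjamini-Hochberg adjusted p under 0.05), where 12% of all 22331 genes tested did. Of these, 6 were higher (6.58% of all genes) and 6 lower (5.38% of all genes). In siCAMSAP1 against control, 3 of 67 passed, all higher, against 1.06% of all genes in either direction, 0.519% higher and 0.542% lower. Between the knockdowns, siRAB3IP against siCAMSAP1, 10 of 67 passed, 3 higher and 7 lower, against 9.3% of all genes, 5.14% higher and 4.16% lower. An unadjusted edgeR p under 0.05 was reached by 21, 7 and 26 of the 67 in those comparisons in that order. Of all 22331 genes, 5759, 2707 and 5199 reached it. DESeq2 called 12, 4 and 11 motor genes and limma-voom 12, 3 and 10. The median log2 fold change of the motor genes was -0.10, 0.01 and -0.11 in those comparisons in that order, beside -0.01, 0.00 and -0.01 over all genes tested. The 4 members left out by the filter on low counts were DNAH8, DNAH9, KIF25 and KIF4B. Both knockdowns were set against the same control libraries, so their fold changes are given side by side and not as independent evidence.

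**Figure D2:**
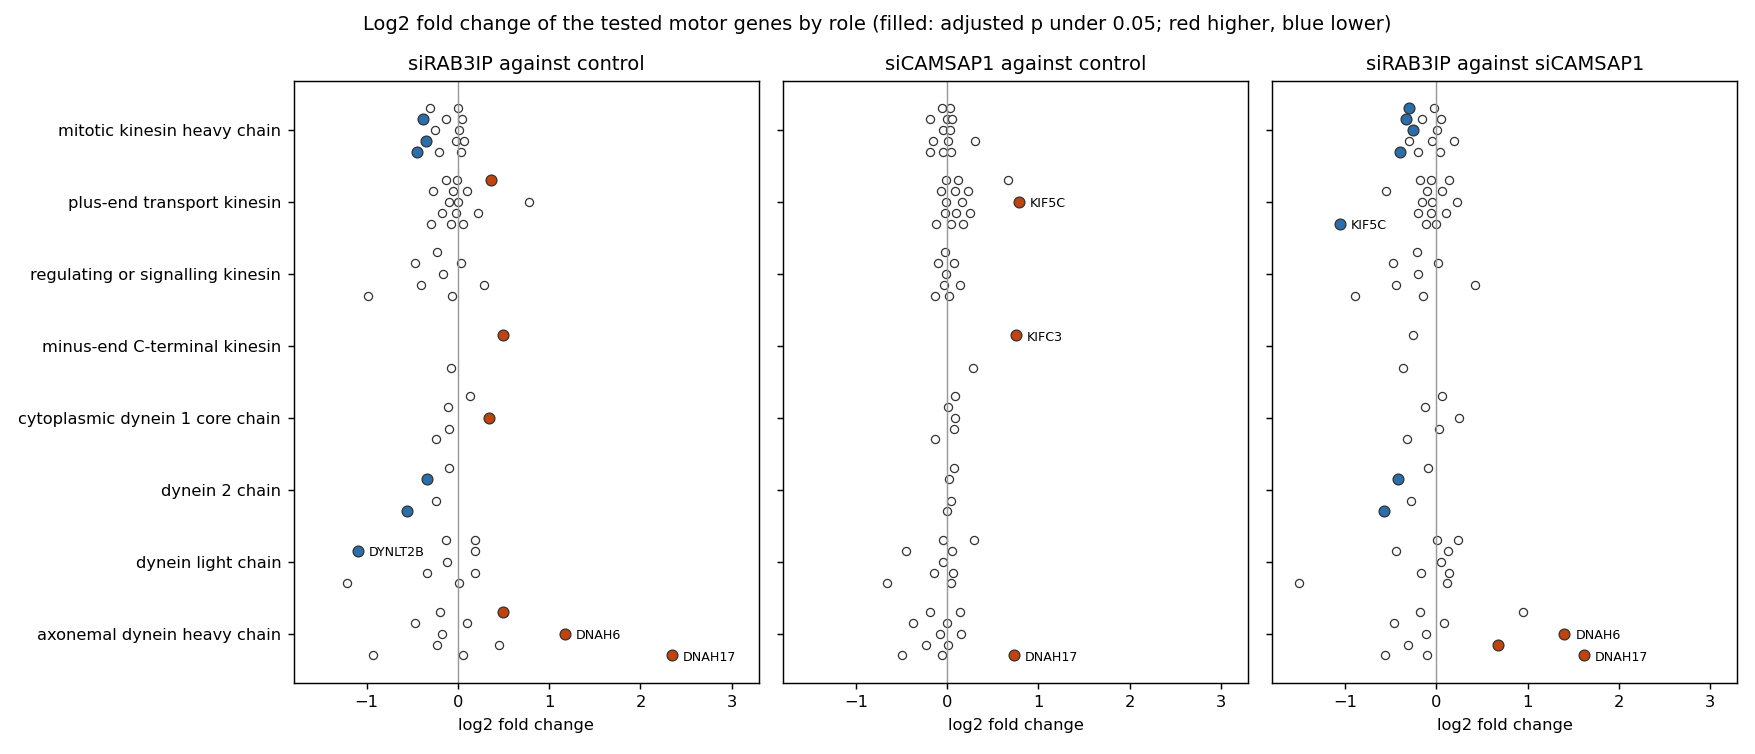
Log2 fold change of each of the 67 motor genes tested (horizontal axis), by role (rows), in siRAB3IP against control, siCAMSAP1 against control and siRAB3IP against siCAMSAP1. Filled points passed the threshold, red for higher and blue for lower. DNAH17 stands farthest right in siRAB3IP against control, at 2.34, and called mitotic kinesins and dynein 2 chains lie left of 0 in the left and right panels.

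Promoter letters were taken from RefSeq (GRCh38.p14), because mitotic and ciliary genes are known to share promoter elements. They are shown for the mitotic kinesins KIF14, KIF20A, KIF22 and KIF23 and, of the ciliary dyneins named below, for DYNC2LI1 and DNAH6 only. Mitotic genes often carry CCAAT boxes and a cell cycle homology region, and genes of cilia often carry the X-box read by RFX factors. Each line runs from 120 bases before the annotated start to 30 bases from it, 5′ to 3′ on the gene's strand, and capitals mark, read on either strand, the CCAAT box, the cell cycle homology words TTTGAA and TTCGAA, and the X-box word GTTGCC.
KIF14 (chr1:200620722-200620871, minus strand): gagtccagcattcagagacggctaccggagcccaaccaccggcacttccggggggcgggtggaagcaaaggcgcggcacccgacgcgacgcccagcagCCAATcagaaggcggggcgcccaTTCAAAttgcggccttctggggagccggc
KIF20A (chr5:138178992-138179141, plus strand): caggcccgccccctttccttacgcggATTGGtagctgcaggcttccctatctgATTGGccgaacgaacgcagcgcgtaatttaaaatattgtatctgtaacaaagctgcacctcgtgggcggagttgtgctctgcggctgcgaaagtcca
KIF22 (chr16:29790631-29790780, plus strand): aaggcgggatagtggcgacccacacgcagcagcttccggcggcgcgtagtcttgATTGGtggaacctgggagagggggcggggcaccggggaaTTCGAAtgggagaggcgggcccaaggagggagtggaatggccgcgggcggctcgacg
KIF23 (chr15:69414229-69414378, plus strand): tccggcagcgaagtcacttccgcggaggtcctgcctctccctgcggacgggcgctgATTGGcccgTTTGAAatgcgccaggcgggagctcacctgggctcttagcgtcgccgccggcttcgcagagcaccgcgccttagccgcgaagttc
DYNC2LI1 (chr2:43773919-43774068, plus strand): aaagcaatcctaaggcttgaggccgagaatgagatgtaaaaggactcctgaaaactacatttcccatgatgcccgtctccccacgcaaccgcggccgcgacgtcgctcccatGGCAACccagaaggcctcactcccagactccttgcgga
DNAH6 (chr2:84516378-84516527, plus strand): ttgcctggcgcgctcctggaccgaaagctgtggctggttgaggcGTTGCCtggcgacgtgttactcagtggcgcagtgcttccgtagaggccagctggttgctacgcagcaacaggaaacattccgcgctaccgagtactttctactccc

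The mitotic kinesin promoters shown each hold at least 1 CCAAT box, KIF20A 2, and KIF14, KIF22 and KIF23 each hold 1 cell cycle homology word. Over 300 bases (250 before the start and 50 from it, both strands, any promoter of a gene), 60 of the 71 members had a promoter in the table. The CCAAT box was found in 12 of 14 mitotic kinesins (85.7%) and in 30 of the 60 members (50%), against 39.7% of 27305 genes. The words TTTGAA or TTCGAA were found in 12 of 14 mitotic kinesins (85.7%) and in 17 of 60 members (28.3%), against 19.5% of all genes. The X-box word GTTGCC was found in 2 of 4 dynein 2 chains (50%), 5 of 11 axonemal heavy chains (45.5%) and 20 of 60 members (33.3%), against 14.6% of all genes. It was also found in 3 of 7 light chains (42.9%), 4 of 12 plus-end transport kinesins (33.3%) and 4 of 14 mitotic kinesins (28.6%). Other classes had it in 1 of 5 cytoplasmic dynein 1 chains (20%) and 1 of 7 regulating or signalling kinesins (14.3%). A CCAAT box was found in 6 of 11 axonemal heavy chains (54.5%). KIF14 has an X-box word and DNAH6 a CCAAT box outside the lines shown. DYNC2I1 and DNAH11, ciliary dyneins called below whose promoters are not shown, have a CCAAT box and no X-box word in those 300 bases. None of these 3 motifs overlaps another in the lines shown. The counts describe letters in a window and were not tested.

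**Figure D3:**
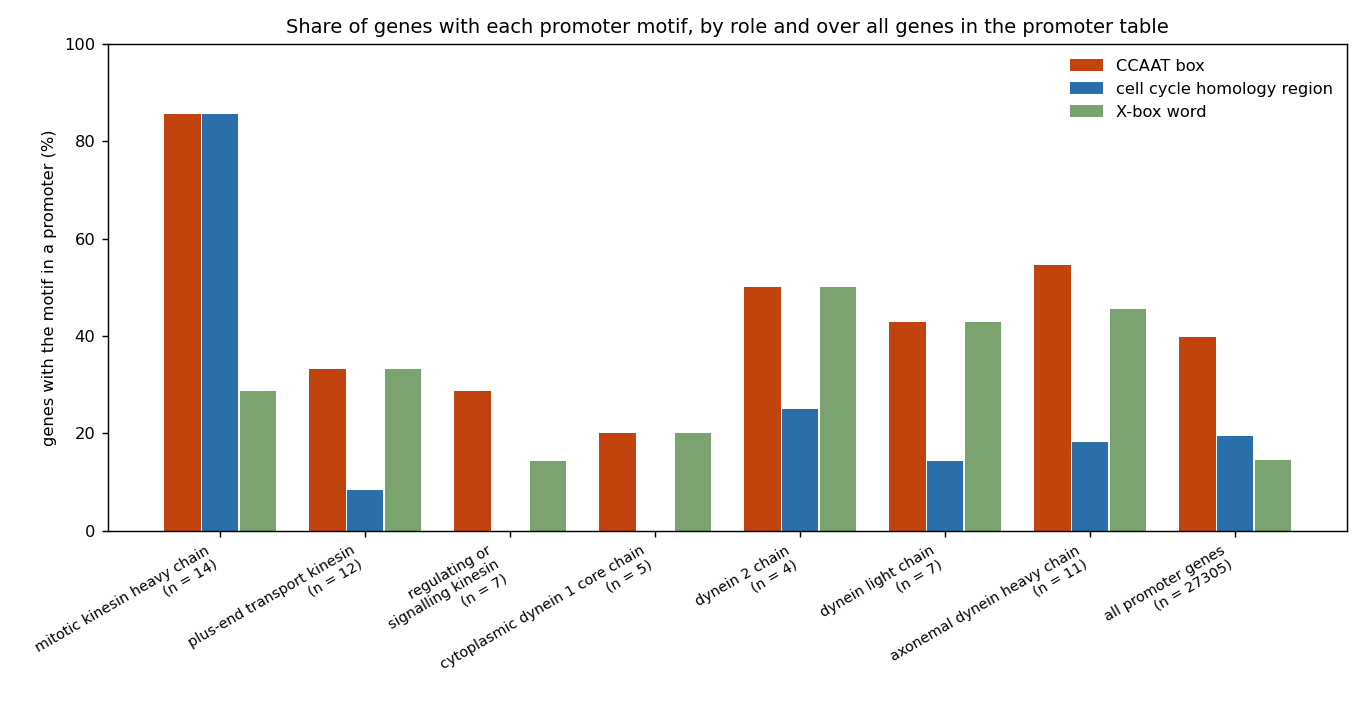
Share of genes (vertical axis, %) with a CCAAT box, a cell cycle homology word or an X-box word in a promoter of 300 bases, for 7 roles of motor genes and, at the right, for all 27305 genes in the promoter table. The mitotic kinesins stand at 85.7% for the first 2 motifs, and n under each label is the number of genes with a promoter.

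Mitotic kinesins were lower in siRAB3IP where they changed. Of 13 tested, 3 fell and 0 rose in siRAB3IP against control, 0 passed in siCAMSAP1 against control, and 4 were lower and 0 higher in siRAB3IP than in siCAMSAP1, with median log2 fold changes of -0.14, 0.00 and -0.15 in that order. The 3 that fell are 23.1% of the class, where 12% of all genes passed and 5.38% were lower, and the 4 between the knockdowns are 30.8%, where 9.3% of all genes passed and 4.16% were lower. Without adjustment, p was under 0.05 for 3 of the 13 in siCAMSAP1 against control, and DESeq2 called 1 there, KIF23. Their summed level was 263 and 261 RPKM in siRAB3IP, 283 and 292 RPKM in siCAMSAP1 and 293 and 295 RPKM in control. The siRAB3IP libraries were the lowest on this sum.

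KIF20A, which brings the chromosomal passenger complex to the central spindle for cytokinesis (ENSG00000112984, hg19 chr5:137514408-137523404, plus strand), had 126 and 133 CPM in siRAB3IP, 156 and 153 CPM in siCAMSAP1 and 174 and 180.0 CPM in control. The groups did not overlap, and siRAB3IP was lowest. Its log2 fold change was -0.45 ± 0.08 (SE; adjusted p = 0.00202) in siRAB3IP against control, -0.19 ± 0.07 (adjusted p = 0.303) in siCAMSAP1 against control and -0.26 ± 0.08 (adjusted p = 0.0488) in siRAB3IP against siCAMSAP1, by edgeR. KIF20A shares 198 exon bases with BRD8 and CDC23, and counting ignored strand. Fragments on the shared bases were left out of the counts, so they were added to none of these genes. The KIF20A value is uncertain because it lacks these fragments. BRD8 had 82.2 and 77.6 CPM in siRAB3IP, 96.9 and 90.4 CPM in siCAMSAP1 and 98.2 and 104 CPM in control. BRD8 also fell in siRAB3IP (log2 fold change -0.34, adjusted p = 0.0149 by edgeR). A link between the falls of BRD8 and KIF20A was not tested.

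KIF14, needed to finish cytokinesis (ENSG00000118193, chr1:200520628-200589862, minus strand), had 56.6 and 60.7 CPM in siRAB3IP, 69.4 and 85.0 CPM in siCAMSAP1 and 71.8 and 81.1 CPM in control. KIF22, which pushes chromosome arms toward the spindle equator (ENSG00000079616, chr16:29802040-29816706, plus strand), had 85.5 and 80.0 CPM in siRAB3IP, 106 and 97.5 CPM in siCAMSAP1 and 110 and 101 CPM in control. In both genes the siRAB3IP libraries lay below all others, while siCAMSAP1 and control overlapped. KIF14 fell by 0.38 ± 0.10 on the log2 scale in siRAB3IP against control (adjusted p = 0.0261) and by 0.40 ± 0.10 against siCAMSAP1 (adjusted p = 0.0262, edgeR). KIF22 fell by 0.35 ± 0.08 (adjusted p = 0.0166) and by 0.30 ± 0.08 (adjusted p = 0.0375, edgeR) in those comparisons.

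KIF23, the motor of the centralspindlin complex (ENSG00000137807, chr15:69706585-69740764, plus strand), set the knockdowns apart in another way. It had 154 and 140 CPM in siRAB3IP, 185 and 186 CPM in siCAMSAP1 and 152 and 147 CPM in control. The siCAMSAP1 libraries were above both other groups, which overlapped. Its log2 fold change was -0.34 ± 0.08 in siRAB3IP against siCAMSAP1 (adjusted p = 0.0159), 0.31 ± 0.08 in siCAMSAP1 against control (adjusted p = 0.0859) and -0.03 ± 0.08 in siRAB3IP against control (adjusted p = 0.879), by edgeR. The authors' deposited table of siCAMSAP1 lists KIF23, with a log2 fold change of 0.31 and an adjusted p of 0.00232.

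KIF2C, a depolymerase at centromeres chosen after its values were seen, missed the threshold narrowly. It had 108 and 90.9 CPM in siRAB3IP, 127 and 118 CPM in siCAMSAP1 and 130 and 116 CPM in control. Its log2 fold change in siRAB3IP against control was -0.31 ± 0.09 (adjusted p = 0.0511 by edgeR), and the authors' deposited table of siRAB3IP lists it at -0.30, with an adjusted p of 0.0118.

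Several of these calls were lost when 1 library was left out. Its group then had 1 library, so a lost call does not show that this library carried the difference. The log2 fold changes kept their sign, and some were smaller and others larger than with all libraries. KIF14 in siRAB3IP against control had -0.33 and -0.43 without siRAB3IP replicates 1 and 2, beside -0.38 with all libraries. KIF22 had -0.395 and -0.30 there, beside -0.35. In siRAB3IP against control, KIF14 was lost without either siRAB3IP library or control replicate 2 (adjusted p = 0.165, 0.0795 and 0.127 by edgeR), and KIF22 without either siRAB3IP library or control replicate 1 (0.0523, 0.150 and 0.0763). Between the knockdowns, KIF20A was lost without any one of siRAB3IP replicates 1 and 2 and siCAMSAP1 replicates 1 and 2 (adjusted p of 0.276, 0.142, 0.256 and 0.159 by edgeR), as was KIF22 (0.0903, 0.271, 0.291 and 0.0545). KIF14 was lost there without either siRAB3IP library or siCAMSAP1 replicate 2 (0.158, 0.0882 and 0.249), and KIF23 without siRAB3IP replicate 2 or either siCAMSAP1 library (0.199, 0.0858 and 0.0804). KIF20A against control kept its call without each library in turn.

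Among 27 spindle partners of these motors, chosen as a list with earlier results of these data known, 3 fell and 0 rose in siRAB3IP against control, and 0 passed in siCAMSAP1 against control (1 without adjustment, edgeR), with median log2 fold changes of -0.08 and 0.00. The 3 are 11.1% of the list, near the 12% of all genes called in this comparison, where 5.38% of all genes were lower. They were CCNB1, the mitotic cyclin, BUB1, a checkpoint kinase, and HMMR, a spindle-pole protein. HMMR had 56.4 and 47.3 CPM in siRAB3IP, 83.3 and 85.2 CPM in siCAMSAP1 and 91.8 and 89.0 CPM in control. CCNB1 had 239.9 and 214 CPM in siRAB3IP, 302 and 277 CPM in siCAMSAP1 and 301 and 269.9 CPM in control. The same 3 were lower in siRAB3IP than in siCAMSAP1, again 11.1% of the list. Between the knockdowns 9.3% of all genes passed and 4.16% were lower.

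**Figure D4:**
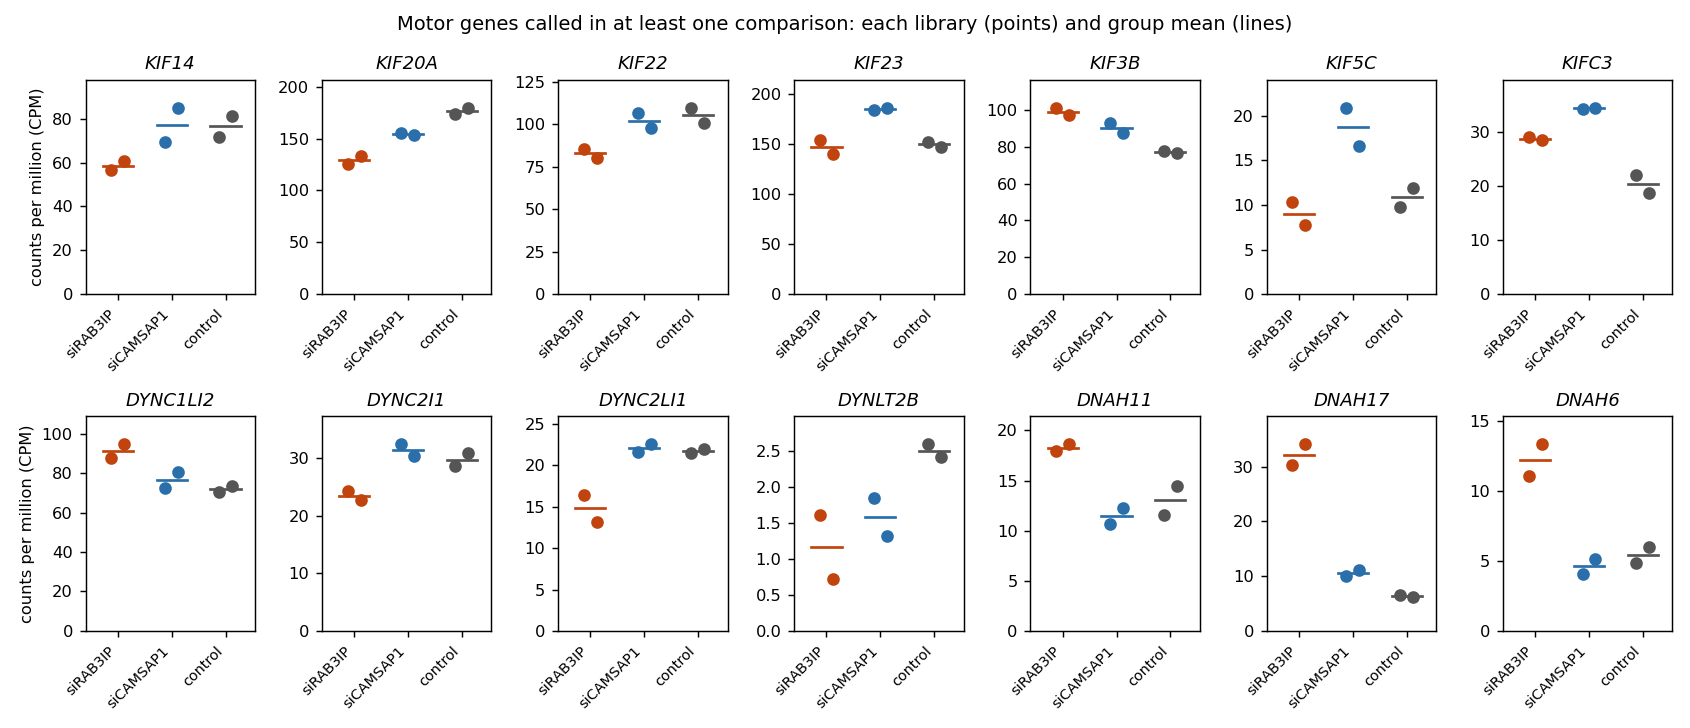
CPM in each library (points) with the group mean (line) for the 14 motor genes that passed the threshold in at least 1 of the 3 comparisons, with siRAB3IP, siCAMSAP1 and control along the horizontal axis and each vertical axis starting at 0. DNAH17, DNAH6 and DNAH11 are highest in siRAB3IP, KIF5C and KIFC3 in siCAMSAP1, and DYNC2LI1 and DYNC2I1 are lowest in siRAB3IP.

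Plus-end transport kinesins carry organelles, vesicles and ciliary trains. Of 15 tested, 1 rose and 0 fell in siRAB3IP against control, 1 rose and 0 fell in siCAMSAP1 against control, and 1 was lower in siRAB3IP than in siCAMSAP1, with median log2 fold changes of -0.03, 0.10 and -0.06. Each call is 6.67% of the class, where 12%, 1.06% and 9.3% of all genes passed in that order. KIF3B, a kinesin-2 heavy chain that drives outward intraflagellar transport together with KIF3A (ENSG00000101350, chr20:30865467-30922814, plus strand), had 101 and 96.9 CPM in siRAB3IP, 93.0 and 87.5 CPM in siCAMSAP1 and 77.8 and 76.6 CPM in control. The groups did not overlap, with siRAB3IP highest and control lowest. KIF3B rose by 0.36 ± 0.08 on the log2 scale in siRAB3IP (1.28-fold, adjusted p = 0.00877 by edgeR), and its log2 fold change in siCAMSAP1 was 0.23 ± 0.08 (adjusted p = 0.232). Without siRAB3IP replicate 1 the adjusted p was 0.0815.

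KIF5C, a conventional kinesin best known from neurons (ENSG00000168280, chr2:149632819-149883273, plus strand), had 10.3 and 7.75 CPM in siRAB3IP, 20.9 and 16.6 CPM in siCAMSAP1 and 9.82 and 11.9 CPM in control. The siCAMSAP1 libraries were above all others, and siRAB3IP and control overlapped. It rose 1.72-fold in siCAMSAP1 against control (log2 fold change 0.78 ± 0.16, adjusted p = 0.0304 by edgeR), was lower in siRAB3IP than in siCAMSAP1 (-1.05 ± 0.16, adjusted p = 0.00132), and had a log2 fold change of -0.27 ± 0.16 in siRAB3IP against control (adjusted p = 0.328). The rise in siCAMSAP1 missed the threshold without siCAMSAP1 replicate 1 (adjusted p = 0.212) or control replicate 1 (adjusted p = 0.0651), by edgeR, and the difference between knockdowns passed without each library in turn. KIF5B, its ubiquitous relative, had 530.5 and 552 CPM in siRAB3IP, 504 and 581 CPM in siCAMSAP1 and 528 and 575 CPM in control, and log2 fold changes of -0.03 ± 0.09 and -0.02 ± 0.09 against control.

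KIF1A, a neuronal vesicle motor chosen after its values were seen, had 7.19 and 3.28 CPM in siRAB3IP, 5.95 and 3.76 CPM in siCAMSAP1 and 3.42 and 2.69 CPM in control. Its log2 fold change of 0.78 ± 0.36 in siRAB3IP against control had an adjusted p of 0.220 (edgeR).

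Kinesin light chains and cargo adaptors, a list of 21 genes, had 2 higher and 3 lower in siRAB3IP against control (23.8%, against 12% of all genes), 0 in siCAMSAP1 against control (3 without adjustment, edgeR), and 0 higher and 3 lower in siRAB3IP than in siCAMSAP1. The 3 between the knockdowns are 14.3% of the list, where 9.3% of all genes passed and 4.16% were lower. The median log2 fold changes were -0.01, 0.02 and -0.10. KLC2, a light chain, and TRAK2, a mitochondrial adaptor, rose in siRAB3IP by 0.37 ± 0.10 and 0.30 ± 0.09 on the log2 scale. The light chains KLC3 (-0.56 ± 0.16) and KLC4 (-0.66 ± 0.11) and the kinesin-binding protein KIFBP (-0.39 ± 0.09) fell. KLC3 had 10.1 and 7.22 CPM in siRAB3IP, 18.9 and 18.1 CPM in siCAMSAP1 and 14.3 and 11.1 CPM in control, with siCAMSAP1 highest and siRAB3IP lowest, and its log2 fold change between the knockdowns was -1.10 ± 0.16 (adjusted p = 0.000980 by edgeR).

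Of 8 microtubule-regulating or signalling kinesins tested, 0 passed in any of the 3 comparisons by edgeR, DESeq2 or limma-voom. An unadjusted edgeR p under 0.05 was reached by 2 in siRAB3IP against control, 0 in siCAMSAP1 against control and 3 in siRAB3IP against siCAMSAP1. KIF2A had 78.5 and 69.5 CPM in siRAB3IP, 78.1 and 85.3 CPM in siCAMSAP1 and 83.8 and 82.8 CPM in control. Fold changes in this class ran between -0.99 for KIF12 and 0.28 for KIF26B on the log2 scale in siRAB3IP against control, and between -0.14 for KIF26B and 0.14 for KIF7, a regulator of Hedgehog signalling at the ciliary tip, in siCAMSAP1 against control.

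KIFC3 rose in both knockdowns. It is a minus-end motor of epithelial junctions, where it runs on microtubules anchored by CAMSAP3, a relative of CAMSAP1 (ENSG00000140859, chr16:57792129-57896957, minus strand). It had 29.1 and 28.6 CPM in siRAB3IP, 34.3 and 34.6 CPM in siCAMSAP1 and 22.1 and 18.8 CPM in control. The 3 groups did not overlap, and control was lowest. KIFC3 was 1.41-fold higher in siRAB3IP than in control (log2 fold change 0.50 ± 0.10, adjusted p = 0.00580) and 1.68-fold higher in siCAMSAP1 (0.75 ± 0.10, adjusted p = 0.00286), by edgeR. The difference between the knockdowns, -0.26 ± 0.10, had an adjusted p of 0.124. Both rises passed without each library in turn. KIFC2, also a C-terminal kinesin, had log2 fold changes of -0.08 in siRAB3IP and 0.28 in siCAMSAP1 and did not pass. KIFC1, a C-terminal kinesin placed here with the mitotic ones, had -0.001 and 0.05 and did not pass either.

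Cytoplasmic dynein 1 is built on the heavy chain DYNC1H1, which had 505 and 492 CPM in siRAB3IP, 493 and 460.1 CPM in siCAMSAP1 and 422 and 485 CPM in control, and log2 fold changes of 0.14 ± 0.09 and 0.07 ± 0.09 against control. Of the 5 core chains, 1 rose in siRAB3IP against control, 0 passed in siCAMSAP1 against control (0 also without adjustment) and 0 between the knockdowns (2 without adjustment), by edgeR. DESeq2 also called 0 in the last 2 comparisons. The 1 that rose is 20% of the core chains, where 12% of all genes passed and 6.58% were higher. DYNC1LI2, a light intermediate chain that binds cargo adaptors (ENSG00000135720, chr16:66754796-66785701, minus strand), had 87.7 and 94.5 CPM in siRAB3IP, 72.4 and 80.5 CPM in siCAMSAP1 and 70.4 and 73.6 CPM in control. The siRAB3IP libraries lay above the rest. DYNC1LI2 shares 1837 exon bases, 22.2% of its exon length, with 2 other genes, and its counts lack fragments on those bases. It rose by 0.34 ± 0.08 on the log2 scale (1.26-fold, adjusted p = 0.0183 by edgeR), and the call was lost without siRAB3IP replicate 2 (adjusted p = 0.153) or control replicate 1 (0.0571). DYNC1LI1, the other light intermediate chain, named after its values were seen, had 57.0 and 45.8 CPM in siRAB3IP, 64.7 and 64.2 CPM in siCAMSAP1 and 64.0 and 57.1 CPM in control, with a log2 fold change of -0.24 ± 0.10 in siRAB3IP (adjusted p = 0.158).

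Partners of dynein 1 were called in shares of 8.33% (dynactin) and 5% (regulators and adaptors) in siRAB3IP against control, where 12% of all genes were called. Of 12 dynactin subunits, which join dynein to cargo, 1 rose (DCTN6, 0.35 ± 0.10 on the log2 scale) and 0 fell in siRAB3IP against control, and 0 passed in siCAMSAP1 against control (1 without adjustment) or between the knockdowns (2 without adjustment), by edgeR. Of 20 dynein regulators and cargo adaptors, 1 fell in siRAB3IP against control (SPDL1, a kinetochore adaptor, -0.31 ± 0.08), 0 passed in siCAMSAP1 against control (5 without adjustment), and 1 was lower in siRAB3IP than in siCAMSAP1 (HOOK2, -0.38 ± 0.10). The 1 between the knockdowns is 5% of the regulators and adaptors, where 9.3% of all genes passed and 4.16% were lower. The median log2 fold changes in siRAB3IP against control were -0.02 for dynactin and -0.07 for the regulators.

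Dynein 2, the return motor of the cilium, was lower in siRAB3IP in part of its subunits. Of its 4 chains tested, 2 fell and 0 rose in siRAB3IP against control, 0 passed in siCAMSAP1 against control by edgeR (0 also without adjustment) or DESeq2, and 2 were lower in siRAB3IP than in siCAMSAP1. The 2 that fell are 50% of the chains, where 12% of all genes passed and 5.38% were lower. Between the knockdowns the 2 are also 50%, where 9.3% of all genes passed and 4.16% were lower. DYNC2LI1, the light intermediate chain (ENSG00000138036, chr2:44001178-44037149, plus strand), had 16.4 and 13.2 CPM in siRAB3IP, 21.6 and 22.5 CPM in siCAMSAP1 and 21.5 and 22.0 CPM in control. DYNC2I1, an intermediate chain (ENSG00000126870, chr7:158649269-158749438, plus strand), had 24.3 and 22.7 CPM in siRAB3IP, 32.5 and 30.4 CPM in siCAMSAP1 and 28.6 and 30.9 CPM in control. Both genes were lowest in the 2 siRAB3IP libraries, and siCAMSAP1 and control overlapped.

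DYNC2LI1 fell by 0.55 ± 0.11 on the log2 scale against control (adjusted p = 0.00740) and by 0.58 ± 0.11 against siCAMSAP1 (adjusted p = 0.00695, edgeR). DYNC2I1 fell by 0.34 ± 0.09 against control (adjusted p = 0.0312) and by 0.42 ± 0.09 against siCAMSAP1 (adjusted p = 0.0131, edgeR). DYNC2I2, the other intermediate chain, had 113 and 109 CPM in siRAB3IP, 144 and 126 CPM in siCAMSAP1 and 140 and 122 CPM in control, with a log2 fold change of -0.24 ± 0.09 in siRAB3IP (adjusted p = 0.110). The heavy chain DYNC2H1 had 261 and 300.5 CPM in siRAB3IP, 250.2 and 349 CPM in siCAMSAP1 and 272 and 328 CPM in control, so its libraries overlapped in all groups, and its log2 fold change was -0.10 ± 0.15. Without siRAB3IP replicate 2, DYNC2LI1 had an adjusted p of 0.0956 against control and 0.0982 against siCAMSAP1 (edgeR). DYNC2I1 missed the threshold against control without either siRAB3IP library or control replicate 2 (adjusted p = 0.0848, 0.203 and 0.175), and against siCAMSAP1 without siRAB3IP replicate 2 or siCAMSAP1 replicate 1 (0.128 and 0.113).

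Genes of the intraflagellar transport trains that dynein 2 carries were also lower in siRAB3IP where they passed. Of 23 such genes, 5 fell and 0 rose in siRAB3IP against control, 0 passed in siCAMSAP1 against control (2 without adjustment, edgeR), and 7 were lower and 0 higher in siRAB3IP than in siCAMSAP1, with median log2 fold changes of -0.19, 0.01 and -0.15. The 5 are 21.7% of the list, where 5.38% of all genes were lower, and the 7 between the knockdowns are 30.4%, where 4.16% were. The 5 were IFT43, IFT140 and IFT88 with IFT74 and IFT172, train subunits of which IFT43 and IFT140 belong to the return complex A and the others to complex B. IFT88 had 6.85 and 5.41 CPM in siRAB3IP, 8.92 and 10.6 CPM in siCAMSAP1 and 10.3 and 10.8 CPM in control. Its log2 fold change of -0.78 ± 0.15 against control was the largest of the 5 (adjusted p = 0.00480 by edgeR). IFT140 had 29.8 and 30.8 CPM in siRAB3IP, 40.3 and 39.6 CPM in siCAMSAP1 and 37.8 and 41.3 CPM in control.

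Of 9 light chains, which are shared between dyneins and with other complexes, 1 fell in siRAB3IP against control, and 0 passed in siCAMSAP1 against control (0 also without adjustment) or between the knockdowns (2 without adjustment), by edgeR. DESeq2 called 0 light chains in each comparison. The 1 that fell by edgeR is 11.1% of the light chains, near the 12% of all genes that passed, where 5.38% were lower. DYNLT2B, a light chain of dynein 2 (ENSG00000213123, chr3:196018090-196045170, minus strand), had 1.61 and 0.719 CPM in siRAB3IP, 1.86 and 1.32 CPM in siCAMSAP1 and 2.60 and 2.42 CPM in control. The control libraries were highest, and the 2 siRAB3IP libraries stood far apart and spanned the lower siCAMSAP1 library. Its log2 fold change in siRAB3IP was -1.10 ± 0.32 (adjusted p = 0.0403 by edgeR), and it shares 31.1% of its exon bases with other genes. The call was lost without siRAB3IP replicate 2, control replicate 1 or control replicate 2 (adjusted p = 0.287, 0.0837 and 0.0679), and by DESeq2 (adjusted p = 0.0509). DYNLL1 had 134 and 126 CPM in siRAB3IP, 148 and 144 CPM in siCAMSAP1 and 149 and 136 CPM in control, with log2 fold changes of -0.13 ± 0.08 and 0.04 ± 0.08 against control.

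DNAH17 and DNAH6, 2 axonemal heavy chains, had the largest rises called in the family. Of 11 tested, 3 rose and 0 fell in siRAB3IP against control, 1 rose and 0 fell in siCAMSAP1 against control, and 3 were higher and 0 lower in siRAB3IP than in siCAMSAP1, while the medians over the class were 0.06, -0.05 and -0.10 on the log2 scale. The calls are 27.3%, 9.09% and 27.3% of the class in that order. Of all genes, 12%, 1.06% and 9.3% passed, with 6.58%, 0.519% and 5.14% higher. The summed level of the axonemal heavy chains was 9.94 and 10.2 RPKM in siRAB3IP, 7.03 and 8.02 RPKM in siCAMSAP1 and 7.15 and 7.52 RPKM in control. DNAH14, the highest of them, had 96.7 and 93.9 CPM in siRAB3IP, 82.3 and 97.0 CPM in siCAMSAP1 and 88.3 and 89.4 CPM in control, with log2 fold changes of 0.10 ± 0.09 and 0.01 ± 0.09 against control.

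DNAH17, an outer-arm heavy chain of the sperm flagellum (ENSG00000187775, chr17:76419778-76573476, minus strand), had 30.3 and 34.1 CPM in siRAB3IP, 9.975 and 11.1 CPM in siCAMSAP1 and 6.50 and 6.17 CPM in control. The 3 groups did not overlap, and both knockdowns were above control. It was 5.08-fold higher in siRAB3IP than in control (log2 fold change 2.34 ± 0.12, adjusted p = 4.62e-07), 1.66-fold higher in siCAMSAP1 (0.73 ± 0.12, adjusted p = 0.0124) and 3.06-fold higher in siRAB3IP than in siCAMSAP1 (1.61 ± 0.11, adjusted p = 4.60e-06), by edgeR. The rise in siCAMSAP1 missed the threshold without siCAMSAP1 replicate 2 (adjusted p = 0.0690). Per length DNAH17 stayed low, at 1.99 ± 0.167 RPKM in siRAB3IP, 0.651 ± 0.0470 in siCAMSAP1 and 0.393 ± 0.0145 in control (SD, n = 2 each).

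DNAH17 shares 1825 exon bases, 11.3% of its exon length, with 4 other genes, and fragments were counted without strand. Fragments on the shared bases were left out, so they were added to neither DNAH17 nor a partner gene. The DNAH17 counts are uncertain because they lack these fragments. The partner gene PGS1 had 33.3 and 32.9 CPM in siRAB3IP, 33.2 and 32.7 CPM in siCAMSAP1 and 36.6 and 33.1 CPM in control, with a log2 fold change of -0.07 in siRAB3IP (adjusted p = 0.664 by edgeR). Another partner, listed as ENSG00000268470, had 0.608 and 0.959 CPM in siRAB3IP, 0.129 and 0.279 CPM in siCAMSAP1 and 0.134 and 0.0484 CPM in control, and was higher in siRAB3IP (log2 fold change 3.09, adjusted p = 0.00702).

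DNAH6, an inner-arm heavy chain whose promoter is shown above (ENSG00000115423, chr2:84743579-85046713, plus strand), had 11.1 and 13.3 CPM in siRAB3IP, 4.10 and 5.13 CPM in siCAMSAP1 and 4.87 and 5.98 CPM in control. The siRAB3IP libraries lay well above the others, which overlapped. DNAH6 rose 2.25-fold against control (log2 fold change 1.17 ± 0.16, adjusted p = 0.000647) and was 2.65-fold higher than in siCAMSAP1 (1.40 ± 0.17, adjusted p = 0.000253), by edgeR. No exon of DNAH6 overlaps another gene, and both calls passed without each library in turn.

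DNAH11, an outer-arm heavy chain of respiratory cilia (ENSG00000105877, chr7:21582833-21941457, plus strand), had 18.0 and 18.6 CPM in siRAB3IP, 10.7 and 12.3 CPM in siCAMSAP1 and 11.6 and 14.5 CPM in control. Its siRAB3IP libraries were above all others. DNAH11 rose 1.40-fold against control (0.49 ± 0.13, adjusted p = 0.0247) and was 1.59-fold higher than in siCAMSAP1 (0.67 ± 0.13, adjusted p = 0.00555), by edgeR. The rise against control was lost without either siRAB3IP library or control replicate 1 (adjusted p = 0.0851, 0.126 and 0.154). It shares 833 exon bases with CDCA7L, which had 63.6 and 66.3 CPM in siRAB3IP, 69.4 and 77.2 CPM in siCAMSAP1 and 71.5 and 72.3 CPM in control and did not pass.

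Axonemal dyneins are assembled with intermediate chains, docking proteins and assembly factors. Of 24 partners and assembly factors tested, 0 rose and 3 fell in siRAB3IP against control (DNAI3, an intermediate chain, -0.80 ± 0.23, DNAAF5, an assembly factor, -0.38 ± 0.11, and ODAD2, a docking protein, -0.48 ± 0.11), and 0 passed in siCAMSAP1 against control (2 without adjustment) or between the knockdowns (3 without adjustment), by edgeR. The 3 are 12.5% of the list, near the 12% of all genes called in that comparison, where 5.38% were lower. The median log2 fold change of the list was -0.14 in siRAB3IP and 0.03 in siCAMSAP1. Of 4 multiciliated markers tested, 1 passed in siRAB3IP against control, with a median log2 fold change of 0.09 and values of 0.12 for MCIDAS, 0.06 for RSPH4A and 0.35 for HYDIN, which did not pass. CFAP43, a protein of motile axonemes, fell in siRAB3IP, to 1.19 and 1.54 CPM against 2.76 and 2.78 CPM in control, and was at 2.04 and 1.93 CPM in siCAMSAP1.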

How the data were processed

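Poly(A) libraries of HEK293 cells were made with a TruSeq RNA kit, per the labels' protocols. The deposited counts are fragments per gene from featureCounts 1.6.0 per the file headers (primary alignments, both ends mapped, no strand setting, fragments on exons of 2 genes left out). STAR, DESeq2 and hg19 are named in the submitters' processing notes, with no version in the sources used here. The signal columns of the deposited tables are counts divided by 1 factor per library; 8 of them matched count columns within 1e-09 in log2 ratio and gave the groups. The log2 fold changes and adjusted p-values in the deposited tables are the authors' own, for 2192 genes in siRAB3IP and 474 in siCAMSAP1.

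Symbols were joined by gene ID (52181 of 63677 matched) and gene types are from GENCODE 29. Counts went into edgeR 4.0.16 under R 4.3.3 (scaled by TMM, filter on low counts, robust quasi-likelihood test, 1 model over 3 groups, 3 residual degrees of freedom) and p-values adjusted over 22331 genes by the Benjamini-Hochberg method at 0.05. The script was tested on simulated data. Members, roles and gene lists were chosen with earlier results of these data known. Named with values in every library were all members called in a comparison and the highest per length in each role. Of the list entries, CCDC39 and NEFL were not matched. Alternatives are given at the end.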

Additional observations from a re-analysis of the deposited data

Results flagged for a closer look

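The direct test of siRAB3IP against siCAMSAP1 (edgeR's quasi-likelihood test) set the knockdowns apart in 10 motor genes. The log2 fold changes, siRAB3IP over siCAMSAP1, were 1.61 for DNAH17, 1.40 for DNAH6 and 0.67 for DNAH11, where siRAB3IP was higher. They were -1.05 for KIF5C, -0.58 for DYNC2LI1, -0.42 for DYNC2I1, -0.40 for KIF14, -0.34 for KIF23, -0.30 for KIF22 and -0.26 for KIF20A, where siRAB3IP was lower. Groups of 2 libraries are too small for a search for single libraries that stand apart.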

How the results depend on the processing

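Of 25 calls named, 7 passed under each of the 16 alternatives that kept the grouping, and no sign turned in them. A test against a fold of 1.2 called 2, 1 and 4 motor genes in siRAB3IP against control, siCAMSAP1 against control and siRAB3IP against siCAMSAP1, against 12, 3 and 10. A replicate block called 25, 8 and 25. These counts are given without the share of all genes called under the same settings. Their change is thus not read as particular to motor genes. Same-numbered libraries deviated together, with a correlation of 0.15, 0.15 and 0.11 over genes, but each comparison has 2 pairs and the record titles number the libraries otherwise, so the pairing is a hint from the data, not the design. Under the block, KIF23, KIF20A and KIF3B passed in siCAMSAP1 against control (adjusted p = 0.000493, 0.0279 and 0.0159 by edgeR), KIFC3 and DYNC1LI2 passed between the knockdowns (0.0186 and 0.00242), DYNC2I2 passed in siRAB3IP against both groups (0.00310 against control), and KIF2C and KIF1A were among those gained in siRAB3IP against control. Leaving out 1 library gave 6 to 13, 2 to 3 and 4 to 14 calls, lowest without siRAB3IP replicate 2 in the first and last (a group then has 1 library, assumed to vary like the others), and 6 between the knockdowns without either siCAMSAP1 library. RLE and upper-quartile scaling, no or a stricter filter (mean of 5 CPM), 4 libraries only, DESeq2 1.42.0, limma-voom in limma 3.58.1 and a non-robust prior, the last chosen after seeing the data, stayed within 1.5 times. With those settings KIF20A between the knockdowns had adjusted p of 0.0553 (RLE), 0.0574 (no filter) and 0.0547 (non-robust prior), KIF5C in siCAMSAP1 0.0662 (stricter filter) and DYNLT2B 0.0509 (DESeq2).

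Grouped by record titles, edgeR called 0 motor genes and 0 of all genes in each comparison, and 21 of the 25 log2 fold changes turned sign. Against control, siRAB3IP then gave -0.23 for DNAH11, -1.19 for DNAH17, -0.66 for DNAH6, -0.11 for DYNC1LI2, -0.0772 for KIF3B, 0.26 for DYNC2I1, 0.20 for DYNC2LI1, 0.0245 for DYNLT2B, 0.23 for KIF14, 0.17 for KIF20A and 0.0849 for KIF22. Against siCAMSAP1 it gave -0.30 for DNAH11, -1.48 for DNAH17, -0.87 for DNAH6, 0.25 for DYNC2I1, 0.29 for DYNC2LI1, 0.0465 for KIF14, 0.23 for KIF20A, 0.22 for KIF22, 0.0246 for KIF23 and 0.43 for KIF5C. The titles put siRAB3IP replicate 1 in control and siRAB3IP replicate 2 in siCAMSAP1. Their siRAB3IP group holds siCAMSAP1 replicate 1 and control replicate 2, and no siRAB3IP library by the table names. The counts are the same in both fits, and the turned signs follow from this regrouping.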
